A study of Mus musculus with 18 samples.

Results

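Cell division and DNA replication genes, a set of 41 genes that drive or carry out the cell cycle, were followed in whole mouse ovaries that carried or lacked Elavl2. The members were chosen by name, and a probe belonged to a member when the array's gene name was that member's symbol or an older alias of it. All 41 were measured among 19299 genes in all. The Elavl2 protein belongs to the ELAV group of RNA-binding proteins. Ovaries were labelled Elavl2 knockout (KO) or wild type (WT), all female, and were taken at 2 embryonic stages, E15.5 and E17.5, and on the day of birth, P0. Each of the 6 groups (KO and WT at 3 stages) held 3 samples with 1 array each, 18 arrays in all. The labels name neither the strain nor the design of the Elavl2 allele, and give "mixed" as the sample type. Nothing says that replicates are separate animals, and p-values then cover only the spread between these samples, which may be technical.

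A dividing cell enters S phase when E2F factors switch on cyclin E and the replication genes. It loads the MCM helicase on origins with Cdc6 and Cdt1, and copies its DNA with Pcna as the sliding clamp and with nucleotides made by ribonucleotide reductase. Mitosis is then started by cyclin B with Cdk1, run by Aurora and Polo kinases and spindle motors, and ended when the anaphase-promoting complex (APC/C) marks cyclin B and securin for destruction. In the fetal mouse ovary germ cells stop mitotic division and enter meiosis, while some of the somatic cells go on dividing. The somatic cells include pregranulosa, stroma and endothelium. Around birth oocytes are enclosed in primordial follicles, and some begin to grow. In a whole ovary, fewer cells of a type and less RNA per cell cannot be told apart.

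Each level is the log2 of a probe's background-subtracted signal minus the 75th percentile of its array, so a level of 0 is the brightness of that percentile and levels are compared only within a gene. Every member was well above background on all 18 arrays. Across arrays, 62.5% to 75.1% of probes were well above background, and replicates correlated at r = 0.965 to 0.995. Changes are KO minus WT, an error after ± is the standard error (SE) of limma's fit unless SD is written, and a gene is called when its limma p, adjusted over all genes, is under 0.05. Elavl2 itself stood at 1.88, 2.02 and 2.11 in KO ovaries at E15.5, against 1.97, 2.08 and 2.28 in WT ovaries, and these groups overlapped. At E17.5 it stood at 2.98, 2.77 and 2.19 in KO ovaries, against 3.58, 3.60 and 3.36 in WT ovaries. At P0 it stood at 3.31, 2.94 and 3.24 in KO ovaries, against 4.50, 4.59 and 4.48 in WT ovaries. The KO arrays lay below every WT array at both later stages, and since the deleted part of the gene is not given, the probe does not test the labels. Of the defining markers of the tissue, the germ cell gene Ddx4 lay between 2.97 and 3.93 on every array, and the pregranulosa gene Foxl2 between -2.96 and -1.94.

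A few arrays stood apart in the same direction for most members, and these were the arrays highest in red cell genes at their stage. KO replicate 1 at E15.5 gave the highest of 6 levels for 37 of 41 members, KO replicate 3 at E17.5 for 33 and WT replicate 2 at P0 for 27. Over the members they exceeded the mean of the other arrays of their group by medians of 0.39, 0.45 and 0.09 in that order. The P0 array thus stood apart by little. The median level of 14 measured red cell genes was 1.92 on that E15.5 KO array, against -0.56 and -0.94 on the other KO arrays and between -0.66 and 1.06 on the WT arrays. At E17.5 it was 1.19 on KO replicate 3, against -2.08 and -0.84 on the other KO arrays and -3.09 to -0.84 on the WT arrays. At P0 it lay between -4.06 and -2.79 in KO ovaries, against -3.1, -1.36 and -3.48 in WT ovaries. Red cell precursors divide, and the part of these cells in the values below was not tested. Arrays lay on 7 slides and in 2 runs, and no slide held both genotypes at E15.5 or at P0. Within those 2 stages a difference between slides and a difference between genotypes therefore cannot be told apart. At E17.5 only slide 3 held both genotypes, with 1 array of each.

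**Figure D1:**
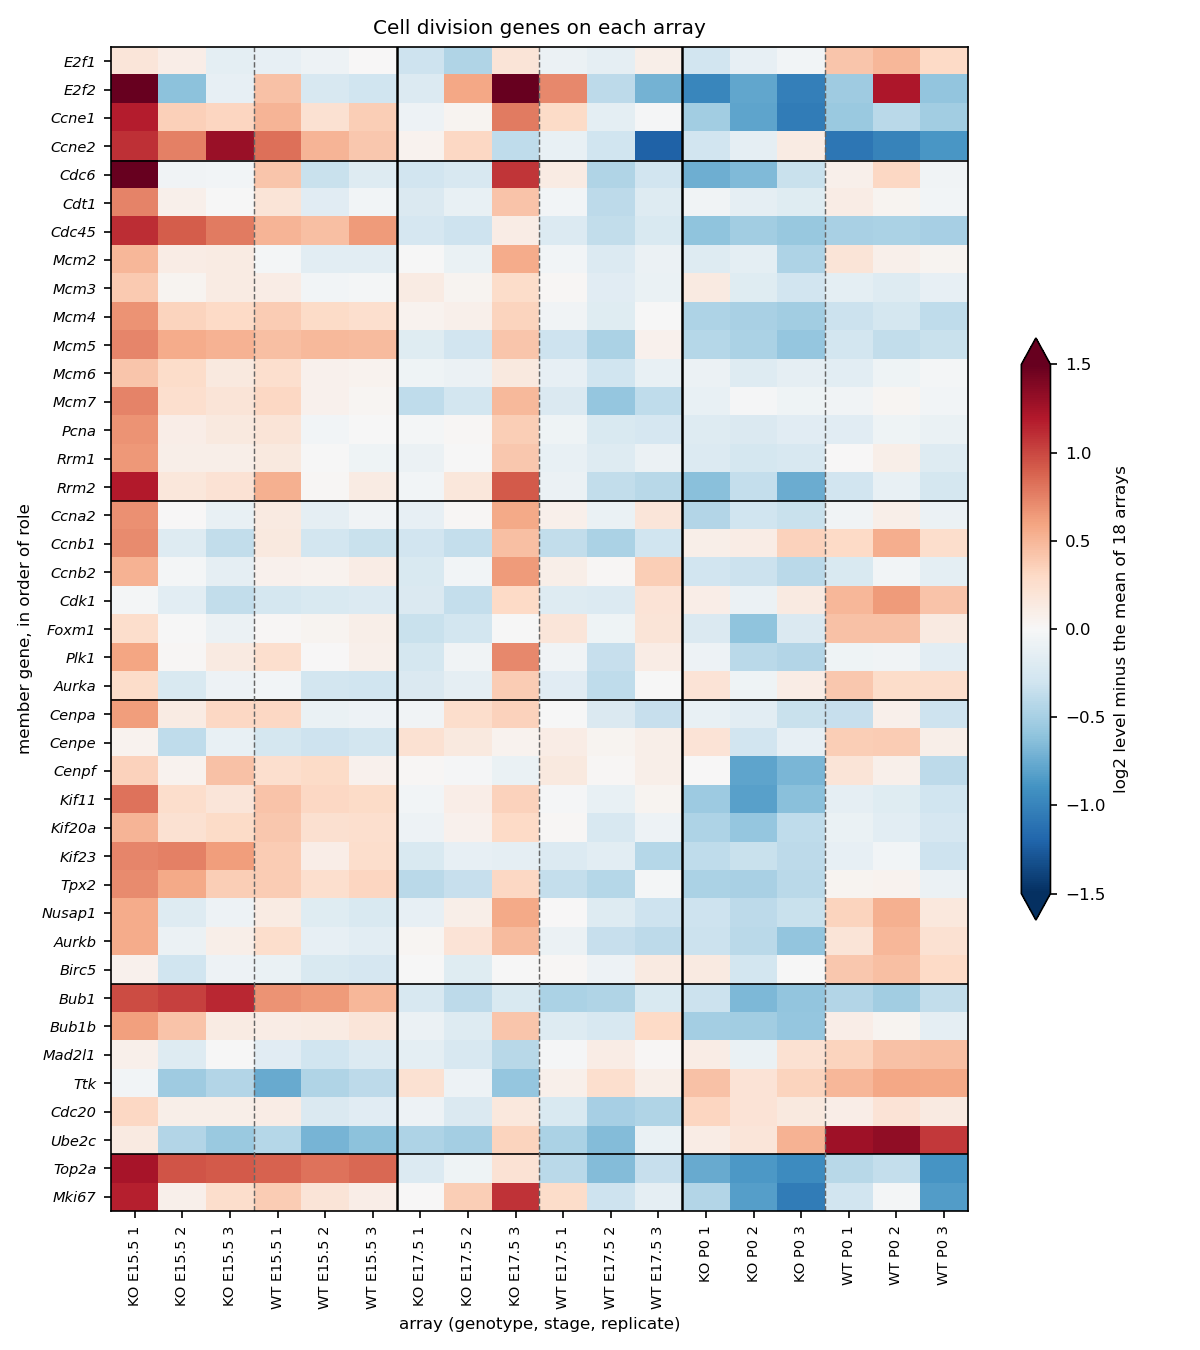
Log2 level of each member on each array, minus that member's mean over the 18 arrays (colour, from 1.5 below to 1.5 above), with arrays in columns by stage and genotype and members in rows by role. KO replicate 1 at E15.5 and KO replicate 3 at E17.5 are redder than their group mates in most rows, and at P0 most rows are bluer in the KO columns than in the WT columns.

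Promoter letters are shown because many members hold short motifs that cell cycle factors are known to bind in human and mouse cells. The windows are the 250 bases before and 50 bases after a gene's start, from RefSeq on build GRCm38.p6, and 34 of 41 members matched an entry. Aurkb, Ccna2, Ccne2, Foxm1, Kif20a, Mcm4 and Tpx2 did not. The first motif, TTTGAA, is the core of the cell cycle genes homology region, a site for the MuvB complex. The second, CCAAT, is the site of the NF-Y factor. TTTGGCGC and TTTCCCGC are forms of the E2F site. Capitals mark these 4 motifs on either strand, and 2 CCAAT matches on opposite strands can overlap, as 1 pair does in the Ube2c window. The first 3 windows belong to mitotic genes called lower in KO ovaries at P0, and the last 2 to licensing genes that were not called there. They are examples, and a link between motifs and calls was not tested. E2f1, Nusap1, Birc5 and Mad2l1 were called lower at P0 with none of the 4 motifs. Mcm2, an MCM gene called lower, held TTTGAA, and Aurka, Cdc20, Plk1 and Top2a held it without a call.
Ube2c, chr2:164769679-164769978, plus strand: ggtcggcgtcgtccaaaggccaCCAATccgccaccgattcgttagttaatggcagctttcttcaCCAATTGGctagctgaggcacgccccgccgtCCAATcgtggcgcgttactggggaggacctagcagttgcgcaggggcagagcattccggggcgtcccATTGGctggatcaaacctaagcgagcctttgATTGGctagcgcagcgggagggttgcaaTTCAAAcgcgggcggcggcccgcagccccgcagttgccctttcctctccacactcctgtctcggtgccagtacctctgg
Cdk1, chr10:69352863-69353162, minus strand: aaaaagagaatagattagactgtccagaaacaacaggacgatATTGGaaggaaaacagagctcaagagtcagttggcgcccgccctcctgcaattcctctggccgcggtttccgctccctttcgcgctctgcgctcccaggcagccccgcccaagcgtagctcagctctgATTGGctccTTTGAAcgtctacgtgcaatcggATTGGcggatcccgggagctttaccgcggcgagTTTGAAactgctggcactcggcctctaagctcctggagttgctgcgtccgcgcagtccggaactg
Bub1b, chr2:118597961-118598260, plus strand: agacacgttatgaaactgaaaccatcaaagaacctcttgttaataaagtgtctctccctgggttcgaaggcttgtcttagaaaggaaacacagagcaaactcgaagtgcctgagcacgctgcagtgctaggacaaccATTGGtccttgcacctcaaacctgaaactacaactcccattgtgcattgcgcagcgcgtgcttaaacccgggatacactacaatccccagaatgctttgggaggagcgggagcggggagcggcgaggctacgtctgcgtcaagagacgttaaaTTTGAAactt
Mcm5, chr8:75109259-75109558, plus strand: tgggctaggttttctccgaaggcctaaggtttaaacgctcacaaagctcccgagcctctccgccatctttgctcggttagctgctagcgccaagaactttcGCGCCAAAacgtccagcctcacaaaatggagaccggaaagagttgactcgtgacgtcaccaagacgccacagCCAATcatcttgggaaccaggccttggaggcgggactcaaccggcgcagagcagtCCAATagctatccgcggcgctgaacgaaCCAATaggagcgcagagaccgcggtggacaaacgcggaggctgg
Cdt1, chr8:122567765-122568064, plus strand: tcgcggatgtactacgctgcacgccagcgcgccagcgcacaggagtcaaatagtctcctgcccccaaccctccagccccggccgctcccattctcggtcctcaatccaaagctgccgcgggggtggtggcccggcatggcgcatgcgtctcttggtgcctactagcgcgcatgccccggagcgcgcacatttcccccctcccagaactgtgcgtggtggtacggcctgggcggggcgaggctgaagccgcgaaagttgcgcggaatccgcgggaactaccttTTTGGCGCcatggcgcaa

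TTTGAA lay in the windows of 17 of 34 members (50%), against 20.2% of 27025 genes with a window. CCAAT lay in 27 members (79.4%), against 41.1% of all genes, and all 17 members with TTTGAA also held CCAAT, while 8.97% of all genes held both. TTTGGCGC lay in 5 members (14.7%), against 0.58% of all genes, and TTTCCCGC in 3 members (8.82%), against 1.24%. By role, TTTGAA was found in 4 of 5 mitotic entry genes, 4 of 7 spindle genes, 4 of 6 checkpoint genes and 2 of 2 proliferation markers, and in 2 of 11 replication genes and 1 of 3 S phase entry genes. One or both E2F forms were found in 6 of 11 replication genes and 1 of 3 S phase entry genes, and in 0 windows of the other roles. Birc5, Ccne1, E2f1, Mad2l1 and Nusap1 held none of the motifs. A gene can have more than 1 window and was counted when any of them held the motif. E2f2 held TTTGAA and TTTGGCGC in different windows. A match is a run of letters, not a measured site.

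At P0 more members were called lower than higher in KO ovaries. Of the 41 members, 13 (31.7%) were called lower and 1 (2.44%) higher, against 16.2% of all 19299 genes called lower and 18.3% called higher. The lower ones were 2 of 7 mitotic entry genes, 6 of 10 spindle genes, 3 of 6 checkpoint genes, 1 of 12 replication genes and 1 of 4 S phase entry genes. Ube2c, Aurkb, Foxm1, Nusap1 and E2f1 had the largest called falls, from -0.95 to -0.55 on the log2 scale, and Ccne2 rose by 0.89. The median change of the members was -0.30, against -0.00 over all genes, with 38 members below 0 and 3 above. All KO levels lay below all WT levels in 26 members and above them in 1, against 25.3% and 23% of all genes. Without the arrays highest in red cell genes, 11 members were called lower and 1 higher, with a median of -0.25. Under scaling by the array median the median of all genes moved by 0.14 and 53.1% of calls being higher became 73.3%; 6 members were then called lower and 1 higher.

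**Figure D2:**
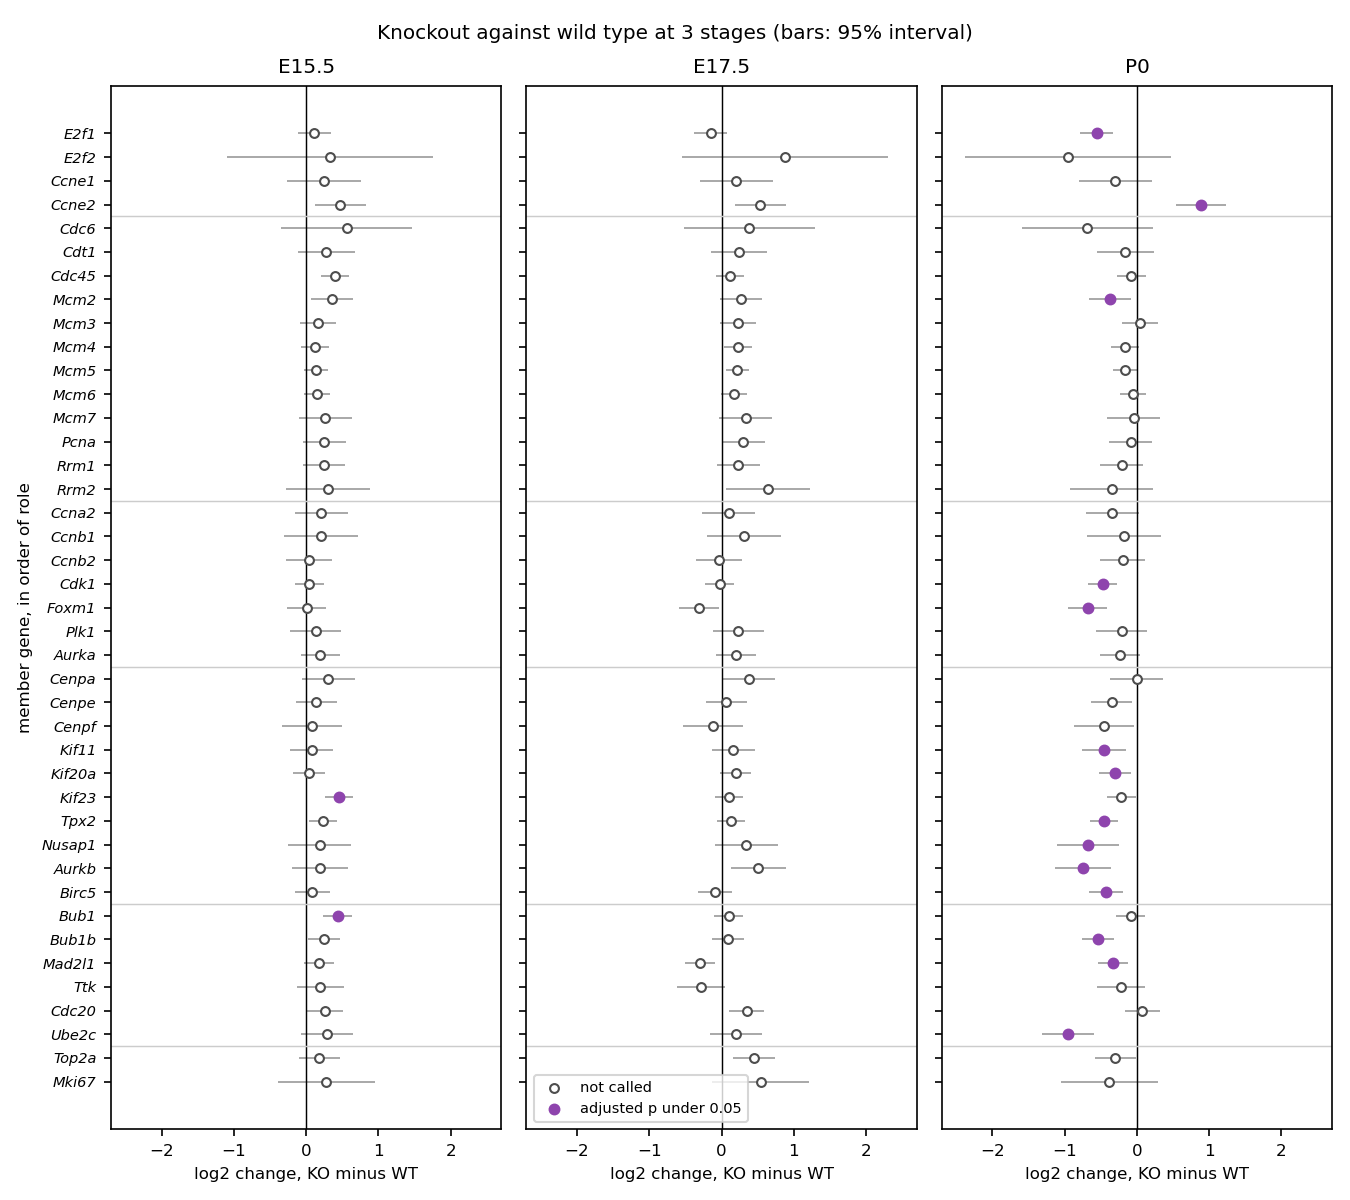
Log2 change of each member, KO minus WT, at E15.5, E17.5 and P0 (points), with 95% intervals of limma's fit (bars) and called members filled. At E15.5 the points lie right of 0 with 2 filled, at E17.5 none is filled, and at P0 13 filled points lie left of 0 and 1, Ccne2, lies right of it.

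Among genes of S phase entry at P0, 1 of 4 was higher, 1 was lower and 2 were not called. Ccne2, 1 of the 2 cyclin E genes that activate Cdk2, stood at -1.07, -0.91 and -0.66 in KO ovaries at P0, against -1.86, -1.78 and -1.65 in WT ovaries. All its KO levels lay above all WT levels, and the rise was 0.89 ± 0.16 (1.85-fold, limma adjusted p = 0.00131). Its second probe gave 0.74 ± 0.13. Ccne2 was also higher in KO ovaries at E15.5 (0.47 ± 0.16) and E17.5 (0.54 ± 0.16), both uncalled. There its second probe gave 0.41 ± 0.13 and 0.65 ± 0.13. By the mean of its probes Ccne2 was called higher at E17.5, and the change of its KO effect from E17.5 to P0 was not called. The other cyclin E gene, Ccne1, stood at 1.55, 1.28 and 1.03 in KO ovaries, against 1.52, 1.68 and 1.56 in WT ovaries. Those groups overlapped, and the change of -0.30 ± 0.23 was not called (95% interval -0.80 to 0.21). E2f1, a transcription factor that turns on S phase genes, stood at -0.22, -0.06 and 0.03 in KO ovaries, against 0.48, 0.57 and 0.36 in WT ovaries. It fell by 0.55 on the log2 scale (SE 0.11, 1.47-fold, limma adjusted p = 0.00166) with no overlap. E2f2, a related factor, stood at 0.60, 0.79 and 0.55 in KO ovaries, against 1.04, 2.78 and 0.98 in WT ovaries. Its WT replicate 2 lay far above the other WT arrays, its change of -0.96 ± 0.66 was not called, and that array was also the highest WT array for red cell genes.

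Of the 12 origin licensing and replication genes at P0, 1 was lower, 0 were higher and 11 were not called, with a median change of -0.16. Mcm2, a subunit of the MCM helicase, stood at 2.10, 2.14 and 1.83 in KO ovaries, against 2.49, 2.37 and 2.33 in WT ovaries. The groups did not overlap, and Mcm2 fell by 0.37 (SE 0.13, limma adjusted p = 0.0472), a call lost under 17 of 33 alternatives. Mcm5, of the same helicase, stood at 2.90, 2.84 and 2.75 in KO ovaries, against 3.04, 2.95 and 2.99 in WT ovaries. These groups did not overlap either, but the change was not called. Mcm3 stood at 4.45, 4.14 and 4.03 in KO ovaries, against 4.17, 4.13 and 4.20 in WT ovaries, overlapping, with a change of 0.04 ± 0.11. Cdc45, which joins MCM in the active helicase, stood at -1.80, -1.72 and -1.77 in KO ovaries, against -1.68, -1.68 and -1.70 in WT ovaries. The gap between its groups was small, with a change of -0.08 ± 0.09 that was not called (95% interval -0.27 to 0.12).

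Of the 7 mitotic entry genes at P0, 2 were lower, 0 were higher and 5 were not called. Foxm1, a transcription factor of genes of late cell cycle, stood at -0.25, -0.63 and -0.24 in KO ovaries, against 0.41, 0.41 and 0.11 in WT ovaries. It fell by 0.68 (SE 0.13, 1.60-fold, limma adjusted p = 0.00139) with no overlap. Cdk1, the kinase that starts mitosis, stood at 1.55, 1.37 and 1.58 in KO ovaries, against 1.95, 2.10 and 1.89 in WT ovaries. It fell by 0.48 (SE 0.09, 1.39-fold, limma adjusted p = 0.00188), again without overlap. The other 5 genes of this role were not called. Ccna2, cyclin A2, stood at 1.79, 1.92 and 1.89 in KO ovaries, against 2.17, 2.31 and 2.14 in WT ovaries, a change of -0.34 ± 0.17. Aurka, the Aurora kinase of spindle poles, stood at 3.07, 2.80 and 2.97 in KO ovaries, against 3.27, 3.14 and 3.13 in WT ovaries, a change of -0.24 ± 0.13. In both genes every KO level lay below every WT level. Ccnb1, Ccnb2 and Plk1 had changes of -0.18, -0.20 and -0.21 and were not called.

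The spindle, kinetochore and cytokinesis genes held the most calls at P0, with 6 of 10 lower, 0 higher and 4 not called. Aurkb, the kinase of the chromosomal passenger complex, stood at -0.59, -0.68 and -0.86 in KO ovaries, against -0.08, 0.22 and -0.05 in WT ovaries. It fell by 0.74 (SE 0.18, 1.67-fold, limma adjusted p = 0.00657) with no overlap. Birc5, survivin, a subunit of the same complex, stood at 4.80, 4.39 and 4.67 in KO ovaries, against 5.07, 5.11 and 4.97 in WT ovaries. It fell by 0.43 (SE 0.11, limma adjusted p = 0.00986). Nusap1, which binds spindle microtubules, stood at 0.54, 0.46 and 0.52 in KO ovaries, against 1.18, 1.39 and 1.01 in WT ovaries. It fell by 0.68 (SE 0.20, 1.60-fold, limma adjusted p = 0.0186) with no overlap. Tpx2, which activates Aurora A on the spindle, stood at 0.51, 0.49 and 0.57 in KO ovaries, against 1.03, 1.03 and 0.89 in WT ovaries. It fell by 0.46 (SE 0.09, limma adjusted p = 0.00216). The spindle motors Kif11 and Kif20a fell by 0.45 and 0.30, calls that Kif11 lost under 6 of 33 alternatives (down to a change of -0.13) and Kif20a under 11 (-0.16). A further Kif11 probe, well above background on only 10 arrays, gave 0.44 ± 0.32. The centromere histone gene Cenpa was at -0.00 ± 0.17, and Cenpe and Cenpf were at -0.35 and -0.45 without a call.

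Of the 6 spindle checkpoint and APC/C genes at P0, 3 were lower, 0 were higher and 3 were not called. Ube2c, the ubiquitin-conjugating enzyme of the APC/C, had the largest called fall of the 41. It stood at 1.77, 1.84 and 2.18 in KO ovaries, against 2.93, 3.00 and 2.72 in WT ovaries and the groups did not overlap. It fell by 0.95 (SE 0.17, 1.93-fold, limma adjusted p = 0.00102). Its probe lies at chr2:164598016-164598075 on the plus strand of build mm9. Bub1b, the checkpoint protein BubR1, stood at -0.003, -0.005 and -0.066 in KO ovaries, against 0.62, 0.55 and 0.38 in WT ovaries. It fell by 0.54 (SE 0.10, 1.45-fold, limma adjusted p = 0.00153). Mad2l1, the checkpoint protein Mad2, stood at 1.32, 1.10 and 1.43 in KO ovaries, against 1.54, 1.65 and 1.65 in WT ovaries, and fell by 0.33 (SE 0.10, limma adjusted p = 0.0179), a call lost under 5 of 33 alternatives. Cdc20, the APC/C activator that the checkpoint holds back, stood at 4.28, 4.16 and 4.11 in KO ovaries, against 4.06, 4.16 and 4.10 in WT ovaries. These groups overlapped, with a change of 0.07 ± 0.11 (95% interval -0.17 to 0.32). Bub1, the checkpoint kinase, was at -0.08 ± 0.09 by its brighter probe and at -0.63 ± 0.19 by its second probe.

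Both proliferation markers were uncalled at P0. Top2a, the topoisomerase that untangles chromosomes, stood at -0.68, -0.78 and -0.87 in KO ovaries, against -0.34, -0.28 and -0.81 in WT ovaries. Mki67, the Ki-67 antigen gene, stood at 2.66, 2.27 and 2.05 in KO ovaries, against 2.81, 3.07 and 2.25 in WT ovaries. In both genes WT replicate 3 lay among the KO levels. Their changes were -0.30 ± 0.13 and -0.38 ± 0.31.

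Marker genes of the other cells in the ovary were tested beside these falls at P0, where 18.3% of all genes were called higher and 16.2% lower. Of 12 growing oocyte genes, 10 were lower and 2 were not called (median -4.39), and their median level lay between -1.20 and -0.30 in KO ovaries, against 2.99 to 3.25 in WT ovaries. Of 9 germ cell genes 4 were higher and 5 not called, and of 7 endothelium genes 5 were higher and 2 not called. Of 10 genes listed as pregranulosa, 4 were higher (Irx3, Rspo1, Upk3b and Krt19) and 6 not called. Upk3b and Krt19 are genes of the ovarian surface epithelium, so these rises are not of pregranulosa genes alone. Foxl2 (-0.13) and Fst (-0.35), named after their values were seen, were among the uncalled, so the list did not move as 1. In 8 stroma genes 3 were higher and 5 not called. Of 7 macrophage genes 1 was higher and 6 were not called, and 0 genes of these 5 lists were lower. Of 14 red cell genes 0 were called, with a median of -0.63. The part of any of these cells in the falls of the division genes was not tested.

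**Figure D3:**
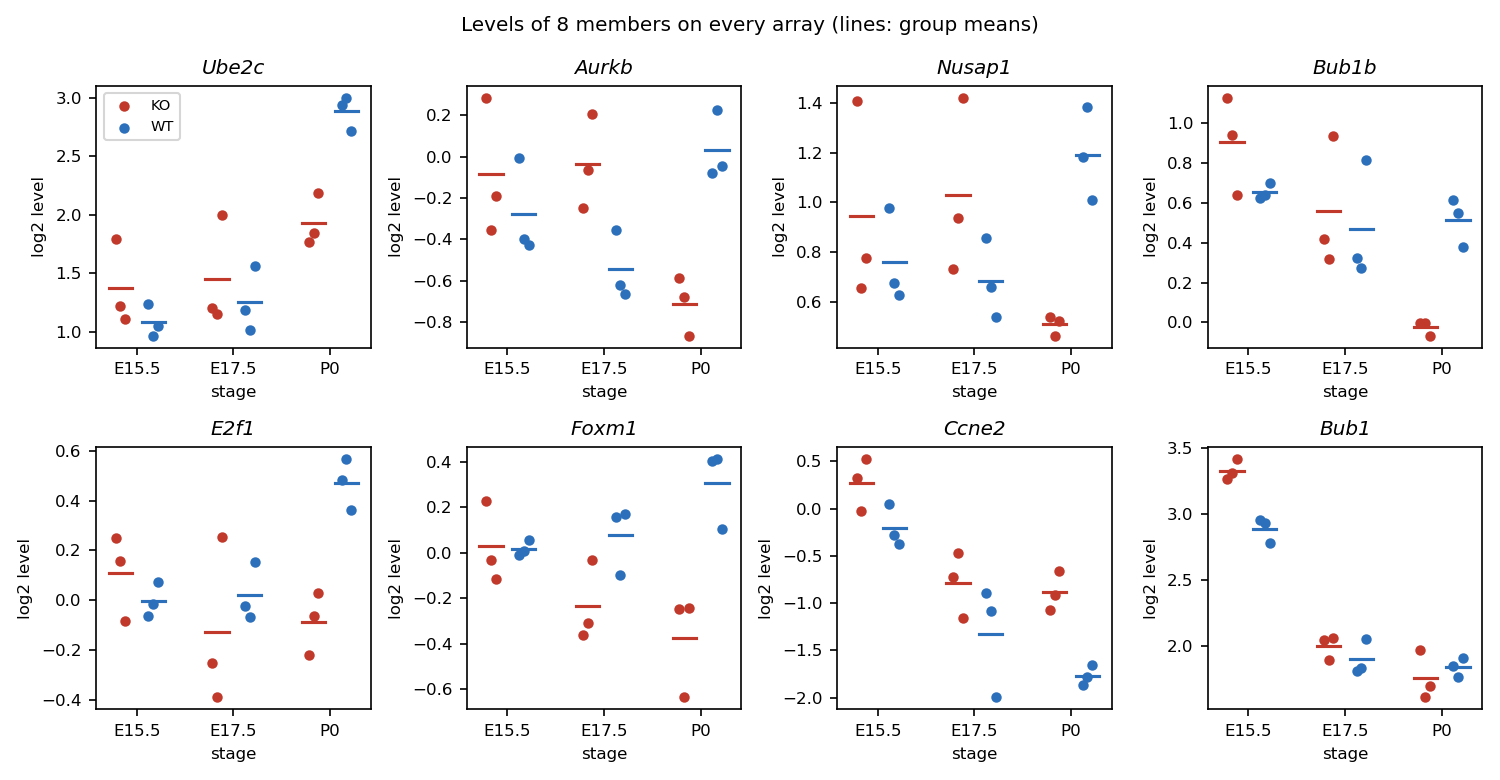
Log2 level on every array (points) and group means (lines) of 8 members at the 3 stages, KO left of WT at each stage. At P0 the KO points lie below the WT points in Ube2c, Aurkb, Nusap1, Bub1b, E2f1 and Foxm1 and above them in Ccne2, and Bub1 differs at E15.5.

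Further genes of the same pathways were also tested at P0. Of 27 further replication genes, 13 were lower, 1 was higher and 13 were not called, against 16.2% of all genes lower and 18.3% higher, with a median of -0.25. Gins2, of the GINS complex that completes the replicative helicase, stood at 0.64, 0.80 and 0.93 in KO ovaries at P0, against 1.76, 1.76 and 1.65 in WT ovaries, and fell by 0.94 (SE 0.09). Gins1, of the same complex, fell by 0.71, Pola2, of DNA polymerase alpha, by 0.82 and Pold1, of polymerase delta, by 0.48. The 1 higher gene, named after its value was seen, was Rfc5, a subunit of the clamp loader, at 0.46 ± 0.09. Of 37 further mitosis genes, 12 were lower, 1 was higher and 24 were not called, against the same 16.2% and 18.3% of all genes, with a median of -0.24. Spc24, of the NDC80 kinetochore complex, stood at 0.12, 0.01 and 0.35 in KO ovaries, against 1.31, 1.44 and 1.21 in WT ovaries, and fell by 1.16 (SE 0.11). Ect2, which starts cytokinesis, fell by 0.88, the motor gene Kif2c by 0.65 and the kinetochore gene Nuf2 by 0.62. The 1 higher gene, also named after its value was seen, was the kinetochore gene Zwilch, at 0.31 ± 0.10.

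Of 25 G1 regulators and inhibitors at P0, 3 were higher, 5 were lower and 17 were not called, with a median of 0.00. These shares lie near those of all genes, 18.3% higher and 16.2% lower. Cdkn1c, which encodes the Cdk inhibitor p57, stood at 4.39, 4.48 and 4.11 in KO ovaries, against 3.74, 3.60 and 3.62 in WT ovaries, and rose by 0.67 (SE 0.14). Cdkn2b, the inhibitor p15, rose by 0.41 (SE 0.12). The inhibitors did not all rise. Of the others, named after their values were seen, Cdkn2c was called lower (-0.52 ± 0.18). Cdkn1a (0.25), Cdkn1b (0.50) and Cdkn2d (-0.29) were not called. E2f5, an E2F factor that acts with pocket proteins, stood at 2.44, 2.26 and 2.42 in KO ovaries, against 3.39, 3.37 and 3.19 in WT ovaries, and fell by 0.95 (SE 0.12). Cdc25a, a phosphatase that activates Cdk2, fell by 0.49 (SE 0.12).

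At E15.5 every member had a change above 0, and 2 were called. Kif23, a kinesin of the cytokinetic midzone, and Bub1 rose, 39 members were not called and 0 were lower, against 0.969% of all genes called higher and 0.648% lower. The 2 are 4.88% of the members. Kif23 stood at 1.03, 1.05 and 0.93 in KO ovaries at E15.5, against 0.68, 0.39 and 0.56 in WT ovaries, with a rise of 0.46 ± 0.09 (limma adjusted p = 0.0278) and 0.49 ± 0.08 by its second probe. Bub1 stood at 3.26, 3.31 and 3.41 in KO ovaries, against 2.95, 2.93 and 2.78 in WT ovaries, with a rise of 0.44 ± 0.09 (limma adjusted p = 0.0348) and 0.39 ± 0.19 by its second probe. In both genes the 3 KO arrays lay close together, KO replicate 1 included. Cdc45 stood at -0.10, -0.29 and -0.43 in KO ovaries, against -0.69, -0.75 and -0.56 in WT ovaries, with no overlap and a change of 0.40 ± 0.09 that was not called (limma adjusted p = 0.0503). The other members with no overlap were Mcm2, Mcm5 and Top2a, so that 6 lay wholly above and 0 wholly below, against 13% and 10.8% of all genes. A second Top2a probe gave -0.39 ± 0.21.

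The median change of the members at E15.5 was 0.20, against 0.01 over all genes. Without KO replicate 1, 27 members lay above 0 and 14 below, the median was 0.04, and Kif23 and Bub1 were still called. KO replicate 1 exceeded the mean of the other KO arrays by a median of 0.39 over the members. E2f2 stood at 3.22 there, against 0.96 and 1.45 on the other KO arrays. Cdc6, the licensing factor, stood at 0.19 there, against -1.54 and -1.53. With a random slide block, with no run term, under scaling by the array median or with only the arrays of the stage compared, 0 members were called at E15.5. The count was also 0 without WT replicate 2, without WT replicate 3, without KO replicate 2 and without the arrays highest in red cell genes. Calls over all genes fell too, from 312 to 144 with the slide block, 40 with no run term and 224 under array-median scaling. Bub1 lost its call under 16 of 33 alternatives and Kif23 under 8, with changes that stayed between 0.36 and 0.53. Of the further lists, Ndc80, a kinetochore gene, was called higher (0.37 ± 0.08), and 0 of 27 further replication genes and 0 of 25 G1 genes were called.

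**Figure D4:**
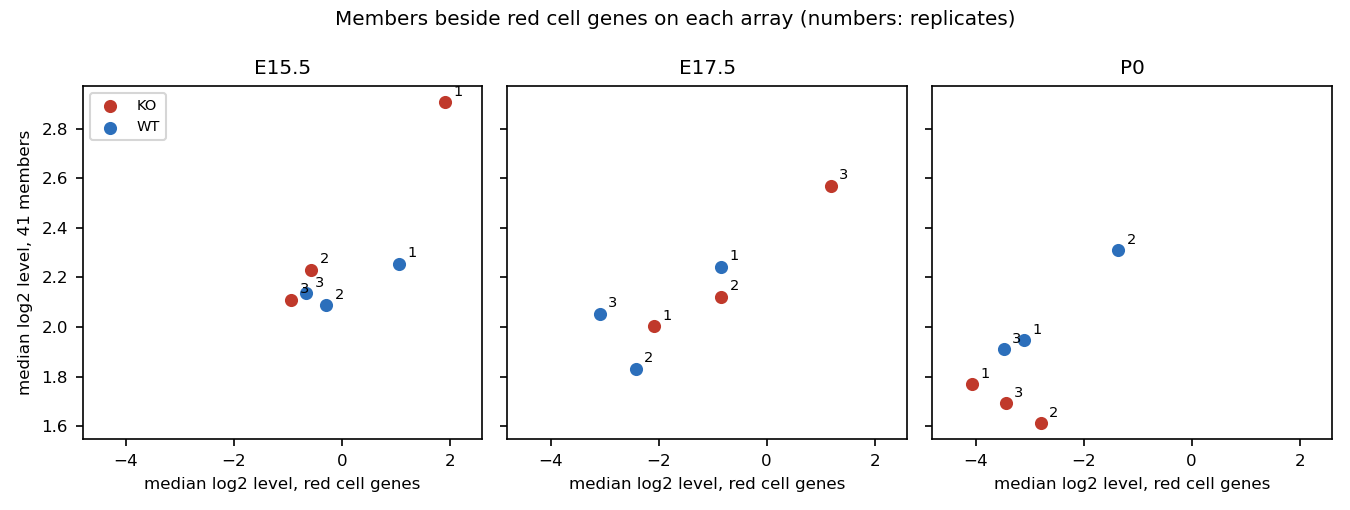
Median log2 level of the 41 members (vertical) beside the median log2 level of 14 red cell genes (horizontal) on each array, by stage, with replicate numbers. KO replicate 1 at E15.5 (1.92), KO replicate 3 at E17.5 (1.19) and WT replicate 2 at P0 (-1.36) lie farthest right and highest at their stage.

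At E17.5 limma called 0 of 41 members, against 1.33% of all genes called higher and 2.82% lower. An unadjusted limma p under 0.05 was found in 11 members, and the share of all genes at that threshold is not given here. Normexp correction with quantile normalization, the mean of a gene's probes and a trended, robust moderation called 1 each. The median change was 0.21, against 0.05 over all genes, with 33 members above 0 and 8 below. All KO levels lay above all WT levels in 8 members and below them in 2, Cenpf and Mad2l1, against 10.9% and 8.16% of all genes. Within the runs the size differed: the replicate 3 arrays of run A, 1 for each genotype, gave a median of 0.38 with 35 members higher in KO, and the 4 arrays of run B gave 0.08 with 30 higher. The red cell median was higher in KO by 3.48 in run A and by 0.36 in run B. Mki67 stood at 3.1, 3.47 and 4.18 in KO ovaries at E17.5, against 3.37, 2.78 and 2.96 in WT ovaries, with KO replicate 3 highest. Its KO level exceeded the WT level by 1.21 in run A and by 0.21 in run B.

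Some uncalled members did not overlap between genotypes at E17.5. Top2a stood at -0.13, 0.01 and 0.30 in KO ovaries, against -0.33, -0.57 and -0.27 in WT ovaries, with a change of 0.45 ± 0.13 (limma adjusted p = 0.0756) and no overlap. Its second probe gave -0.25 ± 0.21. Aurkb stood at -0.25, -0.06 and 0.21 in KO ovaries, against -0.35, -0.62 and -0.66 in WT ovaries, with a change of 0.51 ± 0.18 that was not called. Mad2l1 lay the other way, at 1.06, 0.97 and 0.79 in KO ovaries, against 1.19, 1.32 and 1.22 in WT ovaries, also uncalled (-0.30 ± 0.10). Foxm1 lay at -0.36, -0.31 and -0.03 in KO ovaries, against 0.16, -0.10 and 0.17 in WT ovaries, overlapping between KO replicate 3 and WT replicate 2. Of the G1 genes, E2f5 was called lower (-0.66 ± 0.12) and the factor gene E2f3 higher (0.49 ± 0.10), and 0 of 27 further replication and 0 of 37 further mitosis genes were called.

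From E15.5 to E17.5 the share of members called lower lay near that of all genes. In KO ovaries 1 (2.44%) was higher and 6 (14.6%) lower at E17.5 than at E15.5, against 11.8% and 9.98% of all genes. In WT ovaries 2 (4.88%) were higher and 6 (14.6%) lower, against 15.3% and 11.1%. The median change of the members was -0.03 in both genotypes, with 20 members above 0 and 21 below in each. Ccne2, Top2a, Bub1, Cdc45 and Kif23 were called lower in both, and Cdk1 higher in both. Ccne2 fell by 1.58 in KO and by 1.65 in WT ovaries, and Top2a by 0.88 and 1.14 in the same order. Bub1 fell by 1.22 in KO and by 0.88 in WT ovaries, against changes of -0.33 and -0.02, both uncalled, by the mean of its probes. Cdk1 rose by 0.43 in KO and by 0.50 in WT ovaries. Tpx2 was called lower in KO, a call lost under 21 of 33 alternatives, and in WT Mcm5 was lower and Ube2c higher, the Ube2c call being lost under 25. All E15.5 arrays were of run A, so the run term rests on the 2 replicate 3 arrays of E17.5 against the other E17.5 arrays. With E17.5 arrays of run B only, where the run and the stage cannot be told apart, 15 members were called in KO and 13 in WT ovaries. With no run term 0 members were higher and 8 lower in KO ovaries, and 2 higher and 10 lower in WT ovaries. Calls over all genes were then 5237 in KO and 5164 in WT ovaries, in place of 4208 and 5090. Cdk1 was uncalled in both genotypes with no run term and with run B only, where its change was -0.10 in KO and 0.03 in WT ovaries, and in KO it was -0.19 without slide 3. The falls of Ccne2 were -0.87 in KO and -0.79 in WT ovaries with run B only, still called. Without WT E17.5 replicate 3, 3 members were called in WT ovaries. Under scaling by the array median the share of all calls that were higher was 25.7% in KO and 28% in WT ovaries, in place of 54.2% and 58.0%, and Cdk1 was no longer called in either, with 0 members called higher.

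From E17.5 to P0 most called members were lower at P0 in KO ovaries and higher at P0 in WT ovaries. In KO ovaries 3 members were higher and 11 lower at P0, against 18.2% and 19% of all genes, and in WT ovaries 12 were higher and 1 lower, against 22.1% and 21.1%. In WT ovaries Ube2c rose by 1.84 (SE 0.18), Ccnb1, cyclin B1, by 0.90, Cdk1 by 0.76, Aurka by 0.64, Aurkb by 0.61 and E2f1 by 0.58, and Ccne2 fell by 0.71. In KO ovaries Ube2c rose by 0.69 (SE 0.18) and Cdk1 and Mad2l1 by 0.30 each. With no run term the changes of Ube2c and Cdk1 in KO ovaries were 0.48 and 0.14, both uncalled, with 1 member higher and 12 lower, and in WT ovaries 9 were higher and 0 lower, Ccne2 no longer being called. Mki67 fell in KO ovaries by 1.12, Ccne1 by 0.92, Rrm2, of ribonucleotide reductase, by 0.81, Top2a by 0.74, Kif11 by 0.73 and Aurkb by 0.65. Of 33 alternatives, the KO calls of Cdk1, Mad2l1 and Rrm2 were lost under 6, 13 and 10, and those of Mki67 and Aurkb under 2 each. In WT ovaries Nusap1 and Mcm7, also called higher, lost their calls under 21 and 13. Without KO E17.5 replicate 2, 8 members were called in KO ovaries. Under scaling by the array median 31.4% of WT calls over all genes were higher in place of 51.1%, and 6 members were higher and 2 lower in WT ovaries. The median change of the members was -0.27 in KO and 0.19 in WT ovaries, and these contrasts share their arrays with the comparisons of genotypes above. Of 14 red cell genes, 11 were called lower at P0 in KO ovaries (median -3.19) and 2 in WT ovaries (median -0.70), with 0 higher in either. The part of red cells in these changes of the members was not tested.

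The change of the KO effect between E17.5 and P0 was tested as an interaction, the effect at P0 minus the effect at E17.5. Of the 41 members 10 were called lower and 0 higher, against 6.15% and 4.27% of all genes, with a median of -0.41. Aurkb gave -1.25 ± 0.25 (limma adjusted p = 0.00929) and Ube2c -1.15 ± 0.24 (limma adjusted p = 0.0109). Nusap1 gave -1.03, Top2a -0.75, Mcm2 -0.64, Bub1b -0.63 and Tpx2 -0.59, calls lost under 18, 13, 25, 3 and 6 of 33 alternatives in that order. Aurkb was called under all 33 alternatives and Ube2c under 32, and without the arrays highest in red cell genes these 2 were the members called. With E17.5 arrays of run B only, 3 were called: Ube2c, Bub1b and Aurkb. Under scaling by the array median, where 68.6% of all calls were higher in place of 41%, Ube2c and Aurkb were called lower. Of the further lists, 8 of 27 replication genes and 8 of 37 mitosis genes were called lower and 0 higher. Between E15.5 and E17.5 limma called 0 members in the interaction, against 0.0363% of all genes called higher and 0.269% lower. At an unadjusted limma p under 0.05 lay 5 members, and the share of all genes at that threshold is not given here.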

How the data were processed

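RNA of 18 whole ovary samples was measured on Agilent 4x44K mouse arrays with 1 colour. Per the file headers, the deposited intensity of each spot is a background-subtracted signal that the authors made with Feature Extraction 10.7.3.1; the submitters' processing notes name version 9.5, which of them holds is not given in the sources used here. The log2 values of the deposited series matrix equalled the scanner files' log2 intensity plus a constant for each array, with genes not centred.

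Control and outlier spots were left out. Log2 intensity minus the array's 75th percentile was used. A probe was kept when well above background on all 3 arrays of a group, and the brightest probe stood for a gene, named through RefSeq accessions (28223 of 41174 probes) or the file. limma 3.58.1 (R 4.3.3) fitted 6 groups and the run over 18 arrays, with 11 residual degrees of freedom and Benjamini-Hochberg adjustment over 19299 genes; genes were called at an adjusted p under 0.05. The scripts were tested on simulated data. Runs A and B are told apart by how the deposited files were named. Precision is limited by having 3 arrays in a group.

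The members and lists were chosen with earlier results of these data known. All members could be named; of each further list, up to 4 genes with the smallest adjusted p were, plus single genes said to be chosen after their values were seen. Whether replicate numbers pair the samples was checked across genes, correlating each KO array's departure from its group mean with that of the WT array of its number. All 3 pairs of E17.5 exceeded 0.1 (0.12, 0.40 and 0.45), with replicate 3 of another run and slide. Unmatched arrays of run B there gave 0.28 (KO replicate 1 with WT replicate 2) and 0.32 (KO replicate 2 with WT replicate 1). Pairing and a shared run therefore cannot be told apart at E17.5. At E15.5 and P0 not all pairs exceeded 0.1. The alternatives tried were other backgrounds and scalings, filters, probe means, run, slide and replicate terms, fewer stages and leaving out each array. Run B arrays alone at E17.5, leaving out slide 3 and leaving out the arrays highest in red cell genes were chosen after seeing the data.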

Additional observations from a re-analysis of the deposited data

Results flagged for a closer look

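The effect of the knockout differed between P0 and E17.5, by the interaction term of the same fit, in 10 members, each more negative at P0. The difference on the log2 scale was -1.25 in Aurkb, -1.15 in Ube2c, -1.03 in Nusap1, -0.75 in Top2a, -0.64 in Mcm2, -0.63 in Bub1b, -0.59 in Tpx2, -0.50 in Kif20a, -0.45 in Cdk1 and -0.39 in Mcm5. Aurkb kept its call in all 33 alternatives, Ube2c in 32, Bub1b in 30 and Tpx2 in 27, against 8 for Mcm2 and 10 for Cdk1. In Aurkb the effect was 0.51 at E17.5 and -0.74 at P0. For Top2a, the second probe gave -0.25 at E17.5 and -0.33 at P0.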

How the results depend on the processing

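Every count below is of called members unless all genes are named. A change of sign of a value uncalled before and after is not counted. Calls over all genes moved with the settings too. At E15.5 all genes gave 312 calls, against 224 under array-median scaling, 40 with no run term and 144 with the slide block. At P0 they gave 6651, against 7139 under array-median scaling. In the interaction of P0 with E17.5 they gave 2010, against 2154 under array-median scaling and 1028 with no run term. With no filter they gave 1364, with the slide block 1436 and with probe means 1835. At E15.5 the count of 2 became 0 under scaling by the array median, no run term, a random slide block, only the stage's arrays and without the arrays highest in red cell genes, and 1 with no filter or probe means; leaving out single arrays gave 0 to 3. At E17.5 the count of 0 became 1 under normexp with quantile normalization, probe means and trended, robust moderation, with 0 to 1 on leaving out arrays. At P0 the count of 14 became 7 under array-median scaling and 9 to 17 on leaving out arrays, the lowest without WT replicate 2. E17.5 against E15.5 gave 7 members in KO, 15 with run B only and 17 without slide 3 (6 to 10 on leaving out arrays), and 8 in WT, 13 with run B only and 14 without slide 3 (3 to 10, the lowest without WT E17.5 replicate 3). P0 against E17.5 gave 14 in KO (8 to 17, with 8 without KO E17.5 replicate 2 and 9 without KO P0 replicate 3) and 13 in WT, 8 under array-median scaling (8 to 15, the lowest without WT P0 replicate 2). The interaction of P0 with E17.5 gave 10 members, 2 under array-median scaling, no run term or without the arrays highest in red cell genes, 5 with no filter or the slide block, 6 with probe means, 3 with run B only and 4 without slide 3 (3 to 13). The causes were not tested, apart from fewer arrays in the fits that leave some out. Scaling by the array median moved the median of all genes by 0.14 at P0, 0.16 in the interaction, -0.18 in KO and -0.21 in WT from E15.5 to E17.5 and -0.16 in WT from E17.5 to P0; at E17.5, 19.7% of all calls were higher in place of 32.1%. With the replicate block the counts were 2 at E15.5, 0 at E17.5, 15 at P0 and 10 in the interaction. The interaction of E17.5 with E15.5 stayed at 0 under the alternatives run. E2f1, Ccne2, Foxm1, Aurkb, Bub1b and Ube2c kept their P0 calls in all 33 alternatives, and no called value changed direction between genotypes or in the interactions. Leaving out arrays of other stages, or the run term, could change only the error of these P0 values, not their size. Between stages, values that changed sign and were called under either setting were those from E15.5 to E17.5 of Cdk1 in KO (0.43, against -0.10 with run B only and -0.19 without slide 3), E2f1 in KO (-0.43 and -0.52), Bub1b in KO (-0.53 and -0.66) and in WT (-0.36 in both), and Ttk in KO (0.41 with run B only), and that of Bub1 in WT from E17.5 to P0 (0.33 by probe means). All 41 members were well above background, so signal over background limits none of them.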
